A study of Mus musculus with 6 samples.

Results

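Complex I of the respiratory chain (NADH:ubiquinone oxidoreductase) is built from subunits of the nuclear and the mitochondrial genome. The genes described here are its nuclear subunits and a few relatives with the same names, taken as every protein-coding row of the count table whose symbol starts with Ndufa, Ndufb, Ndufc, Ndufs, Ndufv or Ndufab and goes on with a number, leaving out the Ndufaf assembly factors. This gave 40 genes of 45777 in the table, and all 40 passed the filter on low counts. Brown adipose tissue came from male wild type C57Bl6/J mice given intraperitoneal injections of phosphate-buffered saline (PBS, 3 mice) or of ginsenoside Rb2 (3 mice) over 2 weeks. Rb2 is a saponin of ginseng. The sources used here do not state the dose, the number of injections, the age of the mice or the housing temperature.

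Complex I passes electrons from NADH to ubiquinone and pumps protons across the inner mitochondrial membrane. In brown adipocytes, which are packed with mitochondria, the proton gradient is let back in by uncoupling protein 1 (Ucp1), and its energy becomes heat. The complex is L-shaped. The N module at the tip of the matrix arm oxidises NADH, the Q module reduces ubiquinone, and the membrane arm, with a proximal and a distal part, pumps protons. The core subunits carry the flavin, the iron-sulphur clusters and the pumps, and the accessory subunits surround them.

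The libraries are named by the numbers in the table's column names (PBS 1, 2 and 4, and Rb2 1, 3 and 4). Total counts per library ran from 83642183 to 92666780. All 14 brown adipocyte markers were detected, with Ucp1 between 2928 and 4770 CPM (counts scaled to a common library size with the TMM method) in the 6 libraries. The edgeR test (adjusted p under 0.05) called 2 higher and 2 lower after Rb2, against 5.33% and 5.11% of all tested genes. Cox8b, Dio2, Elovl3 and Prdm16 lay lower in every Rb2 library than in any PBS library (17.6% of all tested genes). Ebf2, Pparg and Zic1 lay higher in every Rb2 library (18.2%). The 14 summed to 16293, 15641 and 16846 CPM in PBS 1, 2 and 4. In Rb2 1, 3 and 4 they summed to 12631, 16972 and 16225 CPM. Markers of other cells also differed between libraries. The summed level of 22 skeletal muscle markers was 2871, 8704 and 75.7 CPM in PBS 1, 2 and 4, and 57.5, 593 and 376 CPM in Rb2 1, 3 and 4. None of the 22 was at 0 in all libraries and none passed the edgeR test. The summed level of 7 fibroblast markers was 741, 748 and 588 CPM in the PBS libraries and 425, 420 and 580 CPM in the Rb2 libraries, with no overlap between the groups. The edgeR test called macrophage markers (4 of 8), erythroid markers (4 of 5) and endothelial markers (2 of 8) lower after Rb2. Of all tested genes 5.11% were called lower. Their summed levels ran from 113 to 146 CPM after PBS and from 73.7 to 105 CPM after Rb2 for macrophages, from 1036 to 1451 and from 479 to 793 CPM for erythroid cells, and from 1302 to 1477 and from 757 to 1138 CPM for endothelium. The part of the brown adipocyte, fibroblast, macrophage, erythroid and endothelial shifts in the results on complex I was not tested. In bulk tissue, fewer cells of a type and less RNA per cell cannot be told apart.

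The sequences upstream of 3 of these genes are printed because their levels were lower in all 3 Rb2 libraries than in any PBS library and because they hold motifs of factors known to act on respiratory chain promoters. Each run is the 250 bases before the RefSeq start site in GRCm38.p6, 5′ to 3′ along the gene, with the motif matches in capitals. Ndufb2 (chr6:39592315-39592564, plus strand) holds the binding motif of the oestrogen-related receptors (ERR, AAGGTCA) and the cyclic AMP response element (CRE, TGACGTC). Ndufa11 (chr17:56717512-56717761, plus strand) holds the CRE and the core of the nuclear respiratory factor 1 site (NRF1, GCGCATG). Ndufb7 (chr8:83566508-83566757, plus strand) holds a TATA motif (TATAAA, on the opposite strand) and the ETS motif bound by GABP (CCGGAAG). Its TATA match lies at the end of the run far from the start site. Of the other genes with such lower levels, Ndufa1, Ndufc1 and Ndufs6 hold none of the motifs searched in their 250 bases. The CRE and NRF1 matches each overlap a match on the opposite strand, since these motifs are near palindromes.
Ndufb2: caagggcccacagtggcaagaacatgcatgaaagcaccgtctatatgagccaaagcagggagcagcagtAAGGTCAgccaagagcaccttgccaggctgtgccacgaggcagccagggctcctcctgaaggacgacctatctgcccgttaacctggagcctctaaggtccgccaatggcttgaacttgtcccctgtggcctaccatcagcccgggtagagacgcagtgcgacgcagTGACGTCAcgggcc
Ndufa11: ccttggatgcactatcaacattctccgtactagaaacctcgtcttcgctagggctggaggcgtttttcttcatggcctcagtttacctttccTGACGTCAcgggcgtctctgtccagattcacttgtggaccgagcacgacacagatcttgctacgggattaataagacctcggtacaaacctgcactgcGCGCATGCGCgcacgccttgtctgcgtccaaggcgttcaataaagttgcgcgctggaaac
Ndufb7: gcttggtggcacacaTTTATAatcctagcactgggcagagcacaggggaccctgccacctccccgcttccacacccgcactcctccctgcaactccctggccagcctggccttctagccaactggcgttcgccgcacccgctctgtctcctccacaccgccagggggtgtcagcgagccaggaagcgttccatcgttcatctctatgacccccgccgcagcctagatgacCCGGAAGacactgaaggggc

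Promoters were available for 34 of the 40 genes, and each motif was searched on both strands in the window from 250 bases before to 50 bases after the start. YY1 (AGATGGC) was in 9 of the 34 (26.5%), against 7.31% of all 27025 promoters. NRF1 was in 5 (14.7%, against 4.41%) and CRE in 4 (11.8%, against 3.6%). ERR was in 3 (8.82%, against 5.38%), and ETS/GABP in 4 (11.8%, against 9.93%). SP1 (GGGGCGG) was in 10 (29.4%, against 25.5%), TATA in 4 (11.8%, against 15.7%) and the E-box (CACGTG) in 2 (5.88%, against 8.09%). The 3 genes with the ERR motif were Ndufb2, Ndufb4 and Ndufs5, and the 4 with the CRE were Ndufa5, Ndufa10, Ndufa11 and Ndufb2. A match is a description of the letters in this window and not of binding.

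After Rb2, 1 of the 40 genes was higher and 3 were lower by edgeR's quasi-likelihood test with Benjamini-Hochberg adjustment over 16707 genes. Ndufs1, the iron-sulphur subunit that carries electrons away from the flavin, rose. Ndufa2 and Ndufb2, small accessory subunits of the N module and of the distal membrane arm, fell, as did Ndufa4l2, a hypoxia-inducible paralog of Ndufa4 that belongs to none of the modules. These 4 are 10% of the 40 genes, and 10.4% of all tested genes passed the same threshold (5.33% higher and 5.11% lower). The share called among the complex I genes was thus near that of the transcriptome at this threshold and filter. At an adjusted p under 0.1 it was 12.5% (1 higher and 4 lower) against 20.3% of all tested genes, and with a count minimum of 50 it was 10% against 15.9%. At an unadjusted p under 0.05 there were 12 of the 40, against 30% of all tested genes. The log2 fold change was negative for 27 of the 40 genes (67.5%) and for 8524 of the 16707 tested genes, with medians of -0.14 and -0.013.

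**Figure D1:**
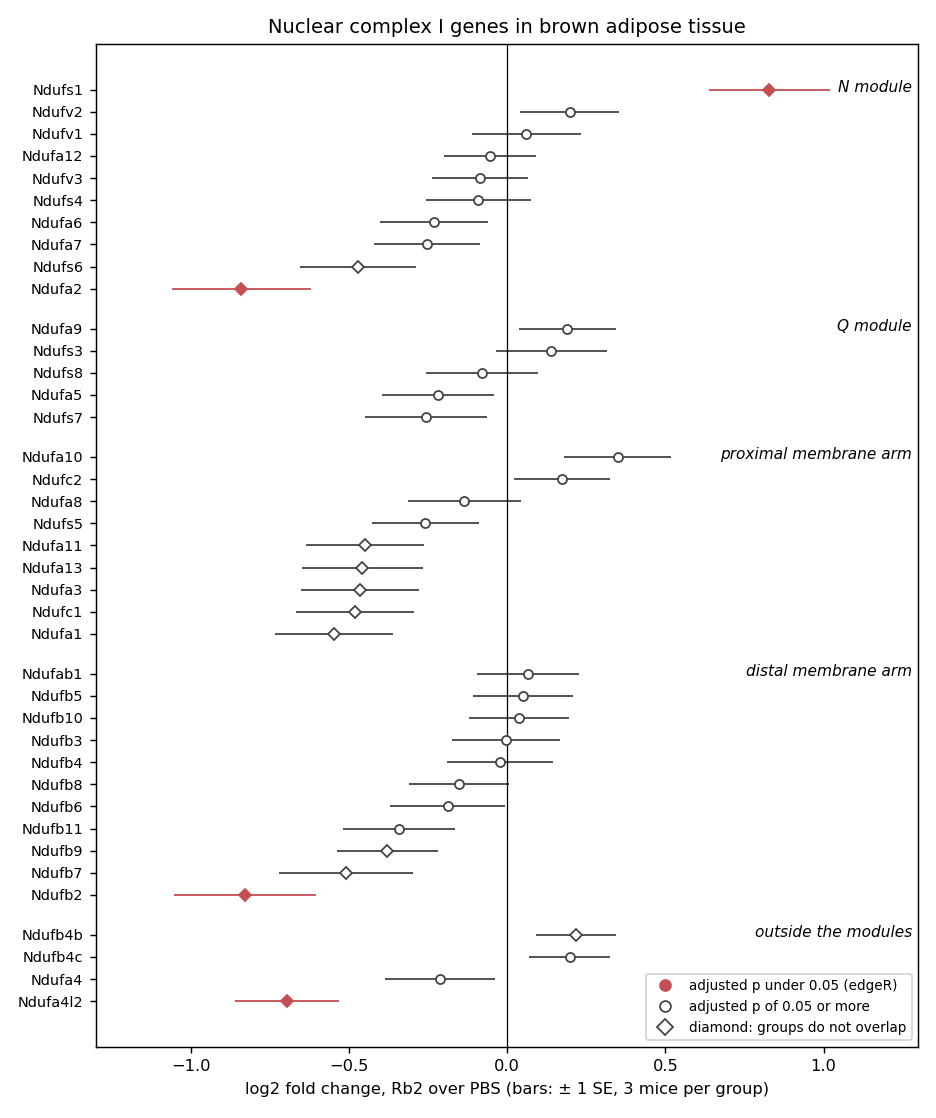
Log2 fold change (Rb2 over PBS, x axis) of 39 genes, grouped by module of the complex (y axis), with bars of 1 SE from the edgeR fit on 3 mice per group. Red symbols mark Ndufs1, Ndufa2, Ndufb2 and Ndufa4l2, the 4 genes with an adjusted p under 0.05, and diamonds mark the genes whose groups do not overlap. All 5 diamonds of the proximal membrane arm lie between -0.55 and -0.45.

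In 11 genes every Rb2 library was below every PBS library (27.5%, against 17.6% of all tested genes). In 2 genes, Ndufs1 and Ndufb4b, every Rb2 library was above every PBS library (18.2% of all tested genes). All 11 lower genes encode accessory subunits or relatives of them. None of the 7 core genes was among them, and the core genes had a median log2 fold change of 0.14, against -0.21 for the 33 others. The difference between core and other genes was not tested. Core transcripts ran from 758 to 2661 bases, and transcripts of the 11 lower genes from 315 to 1251 bases.

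In the N module (10 genes), 1 gene was called higher and 1 lower (20%, against 10.4% of all tested genes). The median log2 fold change was -0.089. Ndufs1 (NCBI gene 227197, chr1:63143592-63176822 in GRCm38, minus strand) stood at 293, 282 and 364 CPM in PBS 1, 2 and 4 and at 661, 578 and 429 CPM in Rb2 1, 3 and 4. The groups did not overlap, and Rb2 1 was the highest of the 6 libraries. The mean went from 313 ± 44.9 to 556 ± 117 CPM (SD, n = 3), a log2 fold change of 0.83 ± 0.19 (SE; adjusted p = 0.0282 by edgeR's quasi-likelihood test). Annotated exons of Ndufs1 share 489 bases with Ino80dos, a non-coding gene on the opposite strand, and whether the counting used strand is not given in the sources used here.

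Ndufa2 (NCBI gene 17991, chromosome 18, minus strand), a thioredoxin-fold accessory subunit, stood at 188, 247 and 217 CPM after PBS and at 83.3, 128 and 152 CPM after Rb2. The groups did not overlap, and Rb2 1 was the lowest. The log2 fold change was -0.84 ± 0.22 (SE, n = 3; adjusted p = 0.0425 by edgeR's quasi-likelihood test). Its exons share 66 bases with Tmco6 on the opposite strand. Ndufs6, a zinc-binding accessory subunit that joins late in assembly, had 228, 267 and 247 CPM after PBS and 134, 187 and 214 CPM after Rb2. Its groups did not overlap, but its log2 fold change of -0.47 ± 0.18 did not pass the edgeR test (adjusted p = 0.120).

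The core subunits Ndufv1, which binds NADH and the flavin, and Ndufv2, its partner with an iron-sulphur cluster, did not pass. Ndufv1 had 576, 707 and 862 CPM after PBS and 714, 739 and 781 CPM after Rb2. All 3 Rb2 values lay inside the PBS range. Ndufv2 had 432, 438 and 507 CPM after PBS and 449, 588 and 543 CPM after Rb2, with Rb2 1 inside the PBS range. Their log2 fold changes were 0.060 and 0.20 (adjusted p = 0.844 and 0.421 by edgeR's quasi-likelihood test). The other 5 genes of the module (Ndufa6, Ndufa7, Ndufa12, Ndufs4 and Ndufv3) had log2 fold changes between -0.25 and -0.054.

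**Figure D2:**
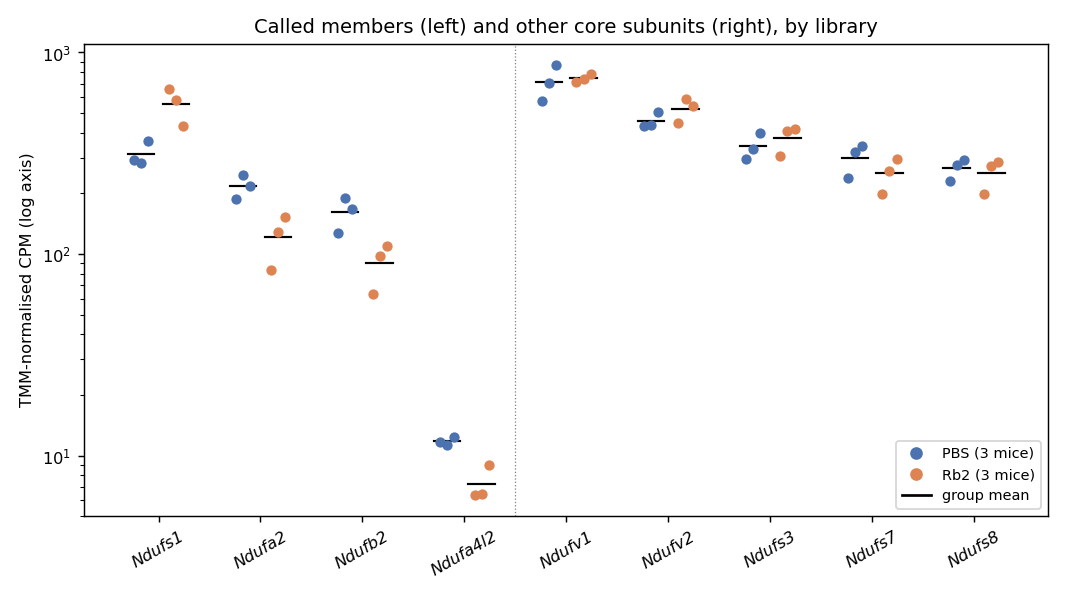
TMM-normalised CPM (y axis, log scale) in each of the 6 libraries for the 4 called genes, left of the dotted line, and 5 core genes other than Ndufs1, right of it. Points are single mice (blue PBS, orange Rb2) and black lines are group means. The groups are apart for the 4 genes on the left and overlap for the 5 on the right.

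No gene of the Q module (6 genes) was called by edgeR's quasi-likelihood test, and 0 of the 6 had an unadjusted p under 0.05. DESeq2's Wald test and limma-voom also called 0 of them. The log2 fold changes ran from -0.26 to 0.19. Ndufs3, a core subunit of the matrix arm, had 296, 332 and 398 CPM after PBS and 307, 407 and 415 CPM after Rb2. Only Rb2 1 lay inside the PBS range. Ndufs7 and Ndufs8, which hold the last iron-sulphur clusters before ubiquinone, had 240, 320 and 342 CPM against 199, 259 and 296 CPM, and 230, 277 and 294 CPM against 199, 273 and 287 CPM. In both, Rb2 1 was the lowest library and the groups overlapped. The log2 fold changes of Ndufs3, Ndufs7 and Ndufs8 were 0.14, -0.26 and -0.078, with adjusted p-values from 0.395 to 0.797 in the edgeR fit.

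The proximal part of the membrane arm (9 genes) had the lowest median log2 fold change of the 4 modules, -0.45. None of its genes was called by edgeR's quasi-likelihood test at the threshold of 0.05, and 5 of the 9 had an unadjusted p under 0.05 (30% of all tested genes). DESeq2's Wald test called 2 of them, Ndufa1 and Ndufc1 (19.8% of all tested genes), and limma-voom called 0. Ndufa1, a small membrane subunit needed for assembly, had 351, 378 and 322 CPM after PBS and 177, 260 and 282 CPM after Rb2. Ndufc1, one of the smallest subunits, had 209, 222 and 211 CPM after PBS and 112, 161 and 186 CPM after Rb2. Both genes were lower in every Rb2 library than in any PBS library, and Rb2 1 was the lowest. Their log2 fold changes were -0.55 ± 0.19 and -0.48 ± 0.19 (SE, n = 3; edgeR adjusted p = 0.0868 and 0.119).

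Ndufa3, Ndufa11 and Ndufa13 had the same separation of the groups. Ndufa13, also known as GRIM-19, had 355, 405 and 371 CPM after PBS and 200, 291 and 332 CPM after Rb2. Ndufa11, whose upstream sequence is printed above, had 159, 192 and 192 CPM after PBS and 97.7, 150 and 150 CPM after Rb2. Ndufa3 had 211, 226 and 217 CPM after PBS and 114, 173 and 187 CPM after Rb2. In each of these 3 genes Rb2 1 was the lowest of all libraries. Their log2 fold changes were -0.46, -0.45 and -0.46 (adjusted p = 0.144, 0.140 and 0.129 by edgeR's quasi-likelihood test). Ndufa13 shares 375 exon bases with Tssk6 on the opposite strand.

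Ndufa10, a subunit related to nucleoside kinases, had the highest log2 fold change of the proximal arm and the second highest of the 40 genes. It had 495, 527 and 694 CPM after PBS and 676, 783 and 726 CPM after Rb2. The groups overlapped only in Rb2 1, which was below PBS 4. The log2 fold change of 0.35 ± 0.17 did not pass (adjusted p = 0.196 in the edgeR fit).

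In the distal part of the membrane arm (11 genes), 1 gene was called lower (9.09%, against 10.4% of all tested genes). The median log2 fold change was -0.15. Ndufb2 (NCBI gene 68198, chr6:39592565-39599843 in GRCm38, plus strand), a small accessory subunit, stood at 128, 189 and 167 CPM after PBS and at 63.5, 98.1 and 110 CPM after Rb2. The groups did not overlap, and Rb2 1 had the lowest level. The log2 fold change was -0.83 ± 0.22 (SE, n = 3; adjusted p = 0.0484 by edgeR's quasi-likelihood test). Its exons share 146 bases with Braf and 156 bases with Gm16272 on the opposite strand, and 145 bases with Gm42420 on the same strand.

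Ndufb7, a subunit on the intermembrane-space side of the arm, had 214, 265 and 257 CPM after PBS and 118, 190 and 209 CPM after Rb2. Ndufb9, a protein of the LYR family, had 658, 757 and 714 CPM after PBS and 454, 574 and 608 CPM after Rb2. In neither gene did the groups overlap. Their log2 fold changes were -0.51 ± 0.21 and -0.38 ± 0.16 (SE, n = 3), which did not pass (edgeR adjusted p = 0.143 and 0.145). The other 8 genes of the distal arm ran from -0.34 (Ndufb11) to 0.067 (Ndufab1, the mitochondrial acyl carrier protein).

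The rule also matched 4 genes outside these modules. Ndufa4, first described as part of complex I and now assigned to complex IV, had 852, 966 and 999 CPM after PBS and 643, 856 and 932 CPM after Rb2. Its groups overlapped (log2 fold change -0.21, adjusted p = 0.440 in the edgeR fit). Ndufa4l2 (NCBI gene 407790, chr10:127509274-127517154 in GRCm38, plus strand) was far lower, with 11.6, 11.3 and 12.4 CPM after PBS and 6.39, 6.42 and 8.97 CPM after Rb2. Rb2 1 and Rb2 3 were nearly equal, and all 3 Rb2 libraries were below all PBS libraries. The log2 fold change was -0.70 ± 0.16 (SE, n = 3; adjusted p = 0.0304 by edgeR's quasi-likelihood test). The Ndufb4 relatives Ndufb4b and Ndufb4c stood between 11.1 and 17.4 CPM in the 6 libraries, with log2 fold changes of 0.22 and 0.20 (edgeR adjusted p = 0.280 and 0.324). Ndufb4c matches 390 bases of the Ndufb4 transcript at 100% identity, so reads of the pair may be split or lost and both values are uncertain.

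Levels per length differed widely between the genes. Divided by the length of the transcript that carries a RefSeq accession, the mean level over 6 libraries ran from 10.2 CPM per kb (Ndufa4l2) to 1434 CPM per kb (Ndufa4), with a median of 332. Such a transcript was found for 38 of the 39 genes with a length, and the longest transcript was used otherwise, here and below. Ndufa4 ranged from 1397 to 1637 CPM per kb in the PBS libraries, Ndufb9 from 934 to 1075 and Ndufa1 from 770 to 902, so these 3 did not overlap after PBS. After Rb2, Ndufb9 (645 to 863) and Ndufa1 (423 to 674) overlapped. The next in order, Ndufc1 and Ndufa6, overlapped over the 6 libraries (355 to 704 and 395 to 621 CPM per kb). At the lower end, Ndufb4c had 39.4 CPM per kb, and Ndufab1 (117) and Ndufs4 (131) overlapped over the libraries. With the longest protein-coding transcript in place of the RefSeq one, Ndufb2 went from 276 to 28.8 CPM per kb, because its longest annotated transcript has 4371 bases and the RefSeq one 455.

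The libraries stood apart across most of the 40 genes. Rb2 1 had the lowest value of the 6 libraries for 30 of the 40 genes, PBS 1 for 7 and PBS 2 for 3. The highest value was in PBS 2 for 13 genes, in PBS 4 for 11, in Rb2 3 for 9, in Rb2 4 for 6 and in Rb2 1 for 1, which was Ndufs1. The 40 genes summed to 12136, 13575 and 14307 CPM in the PBS libraries (1, 2, 4). They summed to 10633, 13475 and 13714 CPM in the Rb2 libraries (1, 3, 4). The groups overlapped, with Rb2 1 below all others. Without Rb2 1 the median log2 fold change of the 40 genes was -0.0011, and 20 of 40 were negative. Rb2 1 was also the lowest library for most nuclear subunits of complexes II to V, described below.

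**Figure D3:**
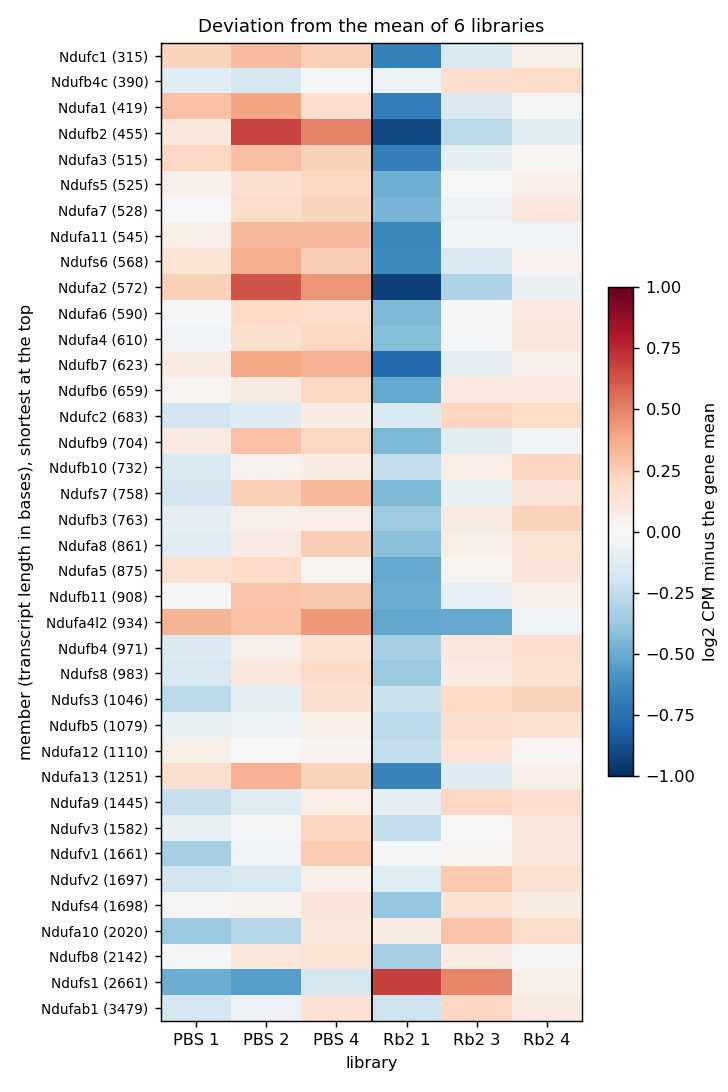
Log2 CPM minus the mean of the 6 libraries (colour, from blue for low to red for high) for 38 genes with a transcript length, ordered from the shortest transcript at the top to the longest at the bottom. Columns are the libraries, with PBS left of the line. Rb2 1 is blue for most short transcripts and red for Ndufs1, and the PBS columns are red for many short transcripts.

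The calls depended on single libraries. Leaving out Rb2 4 kept all 4, and leaving out PBS 4 kept Ndufs1 alone (adjusted p = 0.0344, edgeR's quasi-likelihood test). Leaving out PBS 1, PBS 2, Rb2 1 or Rb2 3 left 0 of the 40 genes called, and 3 to 8 lower and 1 to 2 higher at an unadjusted p under 0.05, which 20.5% to 24.6% of all tested genes reached in these fits. In these 4 fits the log2 fold change of Ndufs1 was 0.78, 0.76, 0.69 and 0.80 (edgeR adjusted p = 0.107, 0.119, 0.0867 and 0.0848). The edgeR adjusted p of Ndufa2 ran from 0.0813 to 0.145, of Ndufb2 from 0.0762 to 0.160 and of Ndufa4l2 from 0.0875 to 0.102. Of all tested genes these fits called 1.95%, 1.77%, 3.19% and 3.48%, against 9.09% without PBS 4 and 13.3% without Rb2 4. Ndufa2 stayed between -1.04 and -0.63, Ndufb2 between -0.998 and -0.63 and Ndufa4l2 between -0.88 and -0.61 when each library was left out in turn. With the mean log2 CPM of the muscle markers as a covariate, 0 of the 40 genes were called. At an unadjusted p under 0.05 in this edgeR fit there were 1 higher and 4 lower, against 23.9% of all tested genes. Of all tested genes 5.56% were called, and Ndufs1 stood at 0.69 on the log2 scale (adjusted p = 0.0527, edgeR). PBS 1 and PBS 2 are the libraries with the highest muscle markers, and without both, which leaves 1 PBS mouse assumed to vary like the Rb2 mice, the log2 fold changes were 0.61 for Ndufs1, -0.84 for Ndufa2, -0.88 for Ndufb2 and -0.77 for Ndufa4l2.

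The transcripts of complex I genes are short, with a median of 861 bases against 2787 bases over all tested genes with a length. Their GC content had a median of 52.2%, against 50.2%. Among 39 of the genes, the shorter the RefSeq transcript, the lower was the log2 fold change (Spearman's coefficient 0.62 and Pearson's r 0.61 with the logarithm of length). Across 15767 tested genes the Spearman coefficient was 0.153. It was not computed for the subunits of complexes II to V, whose values by length are given below. With GC content the Spearman coefficient was -0.40 over the 39 genes and -0.34 over all. These are descriptions across genes that share the same 6 libraries, and genes are not independent replicates. The longest protein-coding transcript was the planned measure, and RefSeq matching was added after the data were seen. With the longest transcript the Spearman coefficient with length was 0.39 and with GC content -0.21. The longest and the RefSeq transcript differ for Ndufb2 (4371 and 455 bases), Ndufc1 (1249 and 315) and Ndufa11 (918 and 545), among others.

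Of 15 genes under 700 bases, 13 had a negative log2 fold change, with a median of -0.45, and the median of all 985 tested genes of such length was -0.27. Of 14 genes of 700 to 1300 bases, 11 were negative (median -0.11, and -0.16 for 1849 tested genes). Of 10 genes over 1300 bases, 7 were positive (median 0.11, and 0.025 for 12933 tested genes). The lengths are those of the RefSeq transcripts, and the bounds were chosen after the values were seen. Ndufb2 (455 bases) and Ndufa2 (572 bases) lay in the shortest class, Ndufa4l2 (934 bases) in the middle and Ndufs1 (2661 bases) in the longest.

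**Figure D4:**
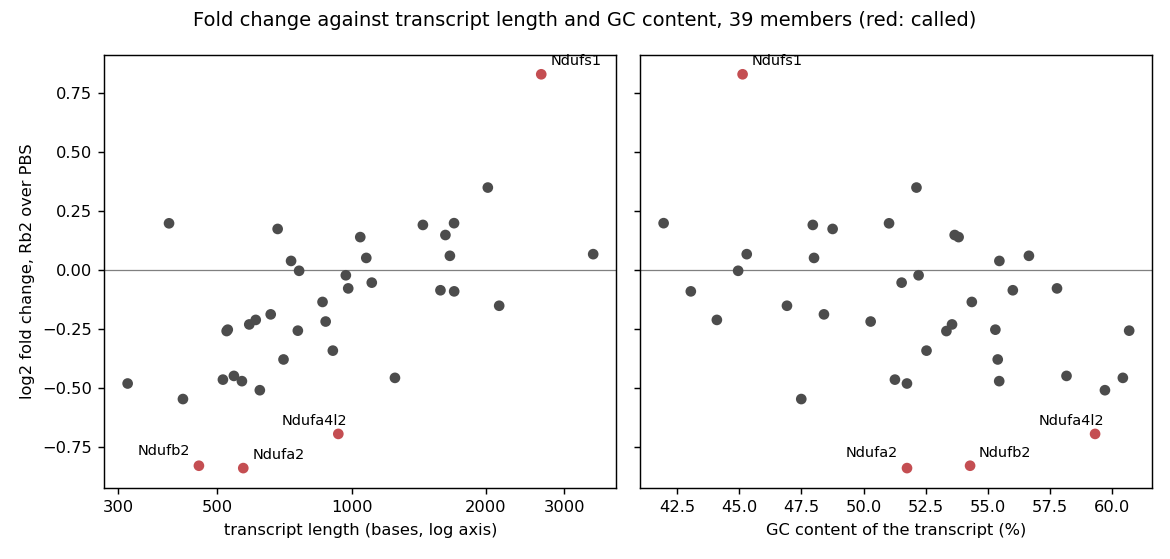
Log2 fold change (Rb2 over PBS, y axis) of 39 genes against the length of the RefSeq transcript (left, bases, log scale) and its GC content (right, percent). Each point is 1 gene, with the 4 called genes in red. Spearman's coefficient is 0.62 with length and -0.40 with GC content. With the planned longest transcripts it is 0.39 and -0.21.

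The relation was also seen in single libraries. For every gene, the log2 CPM in a library was set against its average over the 6 libraries, and this difference was correlated with transcript length across the 39 genes. With the RefSeq lengths the Spearman coefficient was -0.57, -0.62 and -0.42 in the PBS libraries and 0.67, 0.61 and 0.25 in the Rb2 libraries. With the longest transcripts it was -0.40, -0.39 and -0.19 in the PBS libraries and 0.45, 0.38 and 0.026 in the Rb2 libraries, so that in Rb2 4 it was near 0. All PBS values were negative and all Rb2 values positive. They are not independent of the fold changes, which are made from the same differences. Over all tested genes it was -0.13, -0.082 and -0.15 in the PBS libraries and 0.30, -0.0057 and -0.076 in the Rb2 libraries.

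When each library's trend with GC content and length over all genes was fitted and used as an offset, edgeR's quasi-likelihood test called 0 of the 40 genes, and 5 higher and 6 lower had an unadjusted p under 0.05. Of all tested genes 28.4% had such a p and 8.05% were called in that fit. With it Ndufs1 stood at a log2 fold change of 0.64 (adjusted p = 0.0538), Ndufa2 at -0.68 (0.0658), Ndufb2 at -1.03 (0.0707) and Ndufa4l2 at -0.32 (0.155). With the RefSeq transcript in the offset, an alternative added after seeing the data, Ndufb2 had -0.57 (edgeR adjusted p = 0.106). The median of the 40 genes went to -0.025 with the first offset and the number of negative values to 22. The Spearman coefficient with RefSeq length over the 39 genes was 0.44 after the first offset and 0.34 after the second. Other settings shifted the share of all tested genes called as well: 7.31% with the offset for GC content alone, 10.9% for length alone, 8.06% with RefSeq transcripts, and 0.575% with a block on the column numbers. In that block PBS 2 and Rb2 3 have numbers of their own and add nothing to the comparison of the groups. No gene of all those tested was called by edgeR without both PBS 1 and PBS 2, a fit with 1 PBS mouse that says nothing on stability, or with the block and the GC content and length offset together (0% each). It was 10.5%, 9.92% and 7.61% with DESeq2 size factors, upper-quartile factors and library size alone, and 19.8% and 9.74% with DESeq2's Wald test and limma-voom. With no filter it was 6.41%, with a count minimum of 50 it was 15.9%, without mitochondrial transcripts 10.6%, and at an adjusted p under 0.1 it was 20.3%.

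The other genes of the complex were read from the same fit. Of 18 assembly factors found among 19 listed, 0 were called by edgeR's quasi-likelihood test, 8 of the 18 had an unadjusted p under 0.05 (30% of all tested genes), and DESeq2's Wald test called 5 (19.8% of all tested genes) and limma-voom 0. Their log2 fold changes were positive in 14, with a median of 0.22, and in 8 every Rb2 library was above every PBS library (18.2% of all tested genes). Ndufaf1, a chaperone of the membrane arm, had the highest, with 30.7, 29.2 and 38.0 CPM after PBS and 44.7, 50.1 and 42.8 CPM after Rb2 (0.49, adjusted p = 0.0510). Ndufaf8 had the lowest, with 14.3, 23.1 and 21.4 CPM after PBS and 8.98, 11.1 and 14.6 CPM after Rb2 (-0.76, edgeR adjusted p = 0.0635). The groups of Ndufaf1 were apart, and those of Ndufaf8 overlapped in Rb2 4 and PBS 1.

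Of the 7 subunits that the mitochondrial genome encodes, edgeR's quasi-likelihood test called 0, DESeq2's Wald test and limma-voom 0, and 0 had an unadjusted p under 0.05. ND4, a proton pump of the distal arm, had the highest log2 fold change, 0.40 (adjusted p = 0.191), and ND3 the lowest, -0.24 (edgeR adjusted p = 0.433). With the GC content and length offset ND3 passed, at -0.55 (edgeR adjusted p = 0.0450). The ratio of the summed CPM of these 7 to that of the 40 nuclear genes was 10.4, 6.98 and 6.78 in the PBS libraries, and 12.9, 9.49 and 7.27 in the Rb2 libraries. It was highest in Rb2 1 and PBS 1, and the groups overlapped. The libraries were poly(A)-selected.

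**Figure D5:**
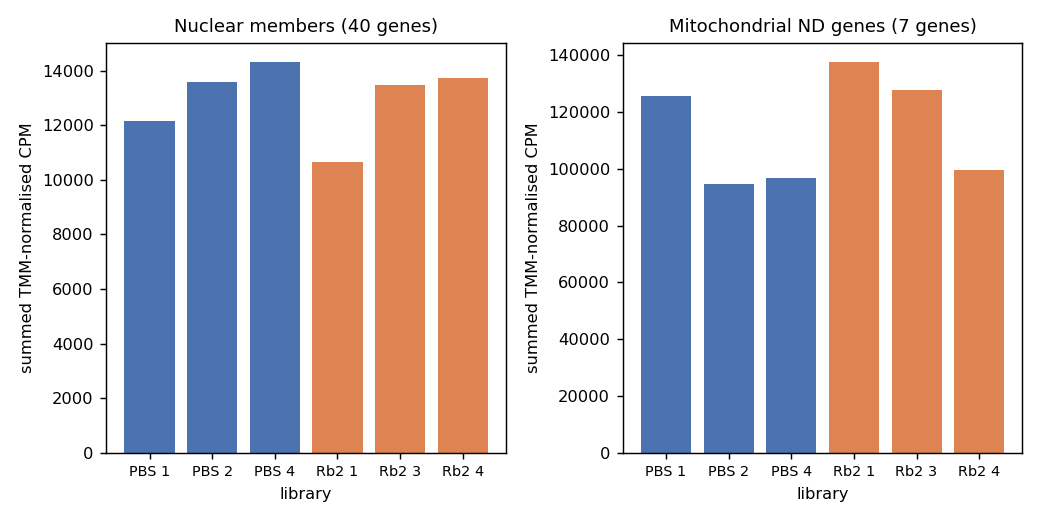
Summed TMM-normalised CPM (y axes, from 0) in each library (x axes) of the 40 nuclear genes (left) and of the 7 mitochondrial ND genes (right), with PBS in blue and Rb2 in orange. Rb2 1 has the lowest nuclear sum, 10633 CPM, and the highest mitochondrial sum, 137605 CPM.

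Nuclear subunits of complexes II to V were measured in the same fit. Of 41 tested, 1 was higher and 1 lower (4.88%, against 10.4% of all tested genes), with a median log2 fold change of -0.15. The 2 were Uqcrc2, a core protein of complex III (0.63, adjusted p = 0.0416), and Atp5k, a small subunit of the ATP synthase (-0.72, adjusted p = 0.0427, both by edgeR's quasi-likelihood test). In 11 of the 41 every Rb2 library was below every PBS library (26.8%, against 27.5% of the complex I genes and 17.6% of all tested genes). In 6 of the 41 every Rb2 library was above every PBS library, against 2 of the 40 complex I genes and 18.2% of all tested genes. The difference between the complexes was not tested.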

How the data were processed

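RNA of brown adipose tissue from 3 mice per group was made into poly(A)-selected, strand-marking libraries, per the labels' protocols. The authors deposited whole-number read counts per gene, not normalised, in 1 table. The submitters' processing notes name the tools HISAT2, StringTie, Bowtie2 and Trimmomatic and the build mm10. Settings and the counting program were not given in the sources used here. Column numbers match no label, so columns were used by group.

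Counts were tested with edgeR 4.0.16 (R 4.3.3): TMM, a count minimum of 10 and a total of at least 15 by its default filter, robust quasi-likelihood F test, and Benjamini-Hochberg adjustment over 16707 genes with a threshold of 0.05. SEs were derived as the absolute log2 fold change over the root of F. On simulated data of 16707 genes for this comparison the test recovered 47 of 100 genes changed 2-fold and 79 of 100 changed 4-fold. Of the 141 genes it called, 15 were unchanged. GC content and length came from GENCODE vM21 for 94.4% of tested genes, and the offset fitted natural splines with 5 degrees of freedom per library. Promoters and positions came from RefSeq (GRCm38.p6). Copies were searched with BLAST 2.17.0.

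The members and lists were chosen with earlier results of these data known. Named are the core genes (1 item is not reported here), genes past the threshold or without overlap between groups, the 5 highest and 5 lowest fold changes, the 3 highest and 3 lowest levels per length, Ndufa4 and Ndufa4l2, and the called, highest and lowest genes of the other complex I lists. The alternatives were DESeq2 1.42.0, limma-voom (limma 3.58.1), other scalings, filters and thresholds, covariates, offsets and libraries left out. White adipocyte markers (3 tested) and fibroblast markers gave 0 calls by edgeR, and brown adipocyte markers 2 higher and 2 lower. RefSeq-matched transcripts and the shorter copy rule were added after seeing the data.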

Additional observations from a re-analysis of the deposited data

How the results depend on the processing

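The count of complex I genes called (1 higher and 3 lower) held with DESeq2 size factors, with no filter, with a count minimum of 50 and without mitochondrial transcripts. Apart from fits with libraries left out, edgeR's quasi-likelihood test called 0 higher and 0 lower in several fits. They used the muscle covariate, the replicate block, or the block and offset together. The others used the offset for GC content alone, for GC content and length, or for both from RefSeq-matched transcripts. At an unadjusted p under 0.05 these fits gave 0 to 5 higher and 3 to 7 lower, against 12.5% to 28.4% of all tested genes. The fit without both PBS 1 and PBS 2 has 1 PBS mouse and says nothing on stability. At an adjusted p under 0.1 there were 1 higher and 4 lower. Lower genes were 2 with upper-quartile factors or limma-voom, 1 with library size alone, 6 with DESeq2's Wald test, and 1 with the length offset. With 1 library left out, 0 to 1 were higher and 0 to 3 lower. The median log2 fold change of the 40 genes ran from -0.22 to -0.0011 with 1 library left out.

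Among the 22 named genes, signs reversed in core genes only. Core genes were named whatever their fold change, and most of the others for extreme or separated values. Some accessory genes not named reversed too with the GC content and length offset. Ndufa7 went from -0.25 to 0.038, Ndufa8 from -0.14 to 0.086 and Ndufab1 from 0.067 to -0.11. Others kept their sign, such as Ndufa9 (0.19 and 0.15). Ndufv1 had -0.029 with library size alone, -0.21 without both PBS 1 and PBS 2, and -0.074 (without PBS 1) to 0.20 with 1 library left out. Ndufs3 had -0.078 without both. Ndufv2 had -0.0075 with the GC content and length offset, -0.027 with GC content alone, -0.059 with block and offset and -0.022 with RefSeq-matched transcripts. Ndufs7 had 0.12, 0.036, 0.14 and 0.17 in the same order. Ndufs8 had 0.14, 0.062, 0.13 and 0.24, 0.054 with the length offset, and -0.18 to 0.071 (without Rb2 1) with 1 library left out. The cause was not tested. Of the values of named genes over all alternatives 410 kept direction and side of the threshold, 53 lost the call, 3 gained it (Ndufa1, Ndufc1 and Ndufs6 with DESeq2's Wald test) and 18 reversed.

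Assembly factors called were 1 with DESeq2 size factors, 5 with DESeq2's Wald test, 2 at a count minimum of 50, 1 with the length offset, 6 at an adjusted p under 0.1 and 0 to 3 with 1 library left out. Mitochondrial subunits called were 1 with each of the GC content, GC content and length, and RefSeq-matched offsets, and 0 with any library left out. Subunits of complexes II to V called (main 2) were 1 with upper-quartile factors, the muscle covariate or the length offset, 11 with DESeq2's Wald test, 8 at an adjusted p under 0.1, 0 to 8 with 1 library left out, and 0 with library size alone, without both PBS 1 and PBS 2, and with the block or any GC offset. Shares of all tested genes called in these fits are given above. The Spearman coefficient with length (0.39) was 0.34 with mean lengths, 0.62 with RefSeq-matched transcripts and 0.37 to 0.40 with 1 library left out. The Spearman coefficient with GC content (-0.21) was -0.40 with RefSeq-matched transcripts and -0.26 to -0.16 with 1 library left out.

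The column numbers 1 and 4 occur in both groups, and the correlations of their deviations were -0.20 and -0.22. No values from other pairs of libraries are set beside these, so they cannot show whether the numbers pair mice. The replicate block on them took the calls over all genes from 1743 to 96, and with the offset to 0. PBS 2 and Rb2 3 have numbers of their own, so in the block they add nothing to the comparison of the groups. That comparison then rests on PBS 1, PBS 4, Rb2 1 and Rb2 4, and the loss of calls cannot show an effect of pairing. Library size alone took the share of higher genes among all calls from 51.1% to 38.7%. At this depth every complex I gene had at least 530 reads in each library.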

Other observations

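Rows outside the rule were read in the same fit. Ndufs5-ps, a transcribed pseudogene row, fell by 0.78 on the log2 scale, with 30.2, 30.9 and 26.7 CPM in PBS 1, 2 and 4 and 13.1, 19.2 and 18.9 CPM in Rb2 1, 3 and 4 (adjusted p = 0.0219 by edgeR's quasi-likelihood test). With the GC content and length offset its log2 fold change was -0.84 (edgeR adjusted p = 0.0258). No length or GC content was found for this row, and the offset used the medians of the tested genes instead. That fit therefore cannot show whether the fall withstands a correction for its own length and GC content. The parent gene Ndufs5, at 160 to 259 CPM, did not pass (log2 fold change -0.26, edgeR adjusted p = 0.330). Whether reads of Ndufs5 were counted in the Ndufs5-ps row was not tested. Ndufb1-ps, a non-coding row in the table that RefSeq lists as the protein-coding gene Ndufb1, had 183, 172 and 163 CPM after PBS and 104, 146 and 157 CPM after Rb2 (-0.35, edgeR adjusted p = 0.197). Its groups did not overlap.

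Transcripts of 10 of 39 genes searched matched another annotated transcript at 95% identity or more over at least 200 bases on the same strand: Ndufa12, Ndufab1, Ndufb3, Ndufb4, Ndufb4c, Ndufb9, Ndufb11, Ndufs3, Ndufs5 and Ndufs6. The longest match was of Ndufs3 with the pseudogene Gm12251, 98.6% over 792 bases. How the counting treated reads that fit both was not stated in the sources used here, so the values of these 10 are uncertain to that extent. Only 1, Ndufb4c with Ndufb4, matched over at least 80% of its transcript.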
